A study of Mus musculus
Mus spretus with 18 samples.

Results

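Members of the p53 pathway were examined in these data: Trp53, which encodes p53, its regulators Mdm2 and Mdm4, and its target genes Cdkn1a, Gadd45a, Phlda3 and Sesn2. They were chosen by symbol, 7 of the 38924 genes in the expression table, and hold 46 of 65856 skipped exon (SE) events and 2 of 2158 retained intron (RI) events measured in the fibroblasts. The study used F1 hybrids of C57BL/6J and SPRET/EiJ mice, so that each gene was present as 1 allele of each strain in every library. Strand-specific mRNA-seq was made from cerebral cortex, heart, kidney, lung, spleen and liver of 2 female animals aged 8 weeks, from 2 embryonic stem cell (ESC) clones, and from 1 fibroblast cell line of the same hybrids that was given either pladienolide B (0.1 μM, 4 h) or the same amount of its solvent DMSO, in 2 libraries per group and 18 in all. Pladienolide B is a macrolide that binds the SF3B complex of the U2 snRNP and inhibits splicing, and the treatment asked how splicing of both alleles changes when the splicing machinery is perturbed. No label says that the 2 fibroblast libraries of a condition came from separate cultures, so their p-values measure the spread between these libraries, which may be technical.

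p53 is a transcription factor that is held at a low level by MDM2, a ubiquitin ligase that marks it for degradation, and by MDM4, a related protein that binds its activation domain. Stress that blocks this pair lets p53 accumulate and raise the transcription of genes that stop the cell cycle, repair DNA or adjust metabolism, among them Mdm2 itself. Both Mdm2 and Mdm4 are known to be spliced in several forms, and skipping of a short exon of Mdm4 gives a form called Mdm4-S that lacks most of the protein.

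Junction reads summed over the SE events were between 121091735 and 144154268 per fibroblast library and between 45055286 and 128494506 per tissue library. Fibroblast markers were found at 1 TPM (a transcript level per length, scaled to the library) or more for 10 of 10 genes in both conditions, with summed levels of 11052.5 to 11741.6 TPM in DMSO and 12061.8 to 12595.2 TPM in pladienolide B. The defining markers of endothelial cells (Pecam1, Cdh5 and Kdr) were each under 0.1 TPM in all 4 fibroblast libraries. Over the same libraries the macrophage list summed to 7.14 to 9.50 TPM (1 of 2 genes found at 1 TPM or more). The epithelial list summed to 7.55 to 8.84 TPM (1 of 4, Cdh1), with Epcam, Krt8 and Krt18 under 0.1 TPM. Each tissue's own marker list had its highest sum in that tissue. In tissue RNA, fewer cells of a type and less RNA per cell cannot be told apart.

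In TPM as deposited, Trp53, Mdm4 and Sesn2 were lower and Gadd45a and Phlda3 higher after pladienolide B. Most genes were lower on this scale, and the direction of Trp53 depended on the scale. Over 13221 genes tested by limma, the median log2 difference of TPM (pladienolide B minus DMSO) was -1.13, and 70.8% of the genes were called at an adjusted p under 0.05 and a fold of at least 1.5, 63.2% lower and 7.68% higher. After quantile normalization of the 4 libraries, which sets their distributions equal, the split changed from 8350 lower and 1016 higher (10.8% of calls higher) to 4345 lower and 3789 higher (46.6%), with a shift of the median gene of 1.08 on the log2 scale. A direction of a member is therefore given below both as deposited and relative to the median gene. On the deposited scale 5 of the 7 members were called, 3 lower (Trp53, Mdm4, Sesn2) and 2 higher (Gadd45a, Phlda3), a share close to the background.

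Trp53 stood at 91.5 and 89.7 TPM in the DMSO libraries and at 49.3 and 49.8 TPM after pladienolide B. The groups did not overlap, and the log2 difference was -0.87 ± 0.04 (SE, n = 2 libraries per group), with an adjusted p of 1.54e-05. Relative to the median gene Trp53 was higher by 0.26 on the log2 scale, whereas it stayed lower after quantile normalization (-0.31), both under the fold limit. Mdm2 was at 49.2 and 50.3 TPM in DMSO and 38.7 and 41.3 TPM in pladienolide B. This difference (-0.31 ± 0.05, adjusted p = 0.00247) was below the fold limit, and its direction flipped relative to the median gene (0.82) and after quantile normalization (0.54).

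On the deposited scale Mdm4 had the largest difference of the 7 genes, whereas relative to the median gene and after quantile normalization Gadd45a had (3.18 and 2.37). Mdm4 fell from 32.1 and 31.9 TPM to 2.89 and 3.48 TPM, a 9.81-fold decrease, with a log2 difference of -3.29 ± 0.10 and an adjusted p of 5.36e-06. Mdm4 was lower also relative to the median gene (-2.16) and after quantile normalization (-1.86), and 5.68% of the genes tested had a lower log2 difference.

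Among the target genes, Gadd45a, whose protein acts in growth arrest and DNA repair, rose from 70.8 and 71.3 TPM to 258 and 334 TPM. The log2 difference was 2.04 ± 0.13 (adjusted p = 5.42e-05), and 97.7% of the genes had a lower one. Phlda3, whose protein restrains AKT signalling at membranes, was at 214 and 213 TPM in DMSO and 317 and 350 TPM in pladienolide B (0.64 ± 0.06, adjusted p = 0.000212). Without the second pladienolide B library its log2 difference was 0.57, just under the fold limit. Cdkn1a encodes p21, an inhibitor of cyclin-dependent kinases, and stood at 197 and 195 TPM against 137 and 148 TPM. Its difference (-0.46 ± 0.05, adjusted p = 0.000557) did not reach the fold limit, and it was above the median gene by 0.68 but lower after quantile normalization (-0.35). Sesn2, a leucine sensor that restrains mTORC1, fell from 28.8 and 27.4 TPM to 7.65 and 9.55 TPM (-1.71 ± 0.12, adjusted p = 7.74e-05). Relative to the median gene Sesn2 differed by -0.57, and by -0.34 after quantile normalization, both under the fold limit. Directions of Gadd45a, Phlda3, Mdm4 and Sesn2 were the same on all 3 scales.

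**Figure D1:**
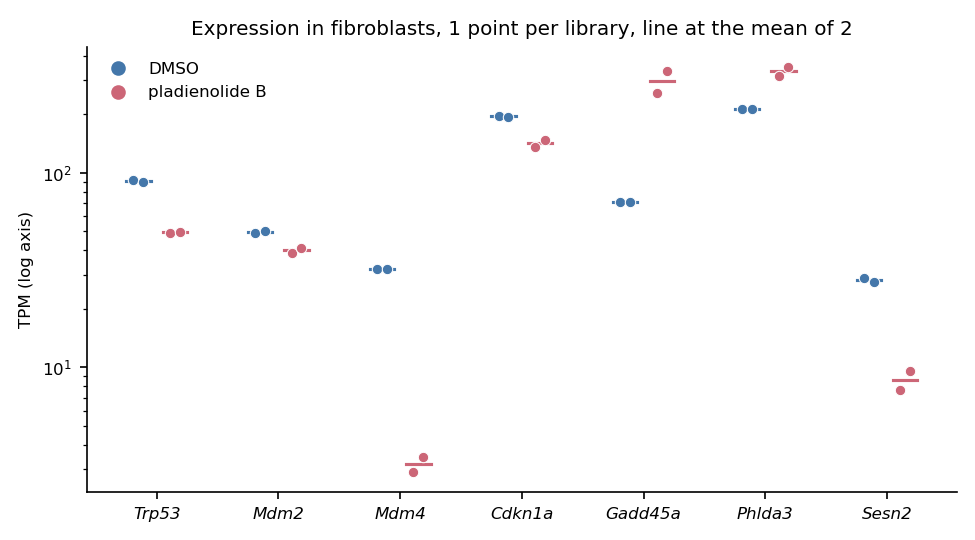
TPM of the 7 genes (log axis) in the fibroblast libraries treated with DMSO (blue) or pladienolide B (red), 1 point per library with a line at the mean of 2. The groups do not overlap for any gene, Mdm4 is lowest after treatment at 2.89 and 3.48 TPM, and only Gadd45a and Phlda3 are higher than in DMSO on this scale.

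Other genes of the pathway were followed in 2 lists. Of 34 further p53 targets tested, 21 were called lower, 5 higher and 8 not called, with a median log2 difference of -1.19, beside 63.2% lower, 7.68% higher and a median of -1.13 over all genes tested. With quantile normalization the counts were 10 lower and 12 higher, beside 4345 lower and 3789 higher of 13221 genes. The highest differences were those of Plk2 (2.31), Btg2 (1.19) and Rap2b (1.08). The lowest were those of the receptor gene Eda2r (-3.83), the translesion polymerase gene Polk (-3.78) and Sesn1 (-3.75), a paralog of Sesn2. Of 27 regulators of p53, Mdm2 or Mdm4 tested, 20 were lower, 2 higher and 5 not called (median -1.48), beside the same 63.2% and 7.68% of all genes. With quantile normalization 9 were lower and 6 higher, to be read beside the same 4345 and 3789 genes. Rpl23 (0.72), a ribosomal protein that binds MDM2 and a gene whose reads may be shared with pseudogene copies, and Daxx (0.61) were the 2 higher ones. Usp10 (-2.91), Ube4b (-2.76) and Usp2 (-2.75), which encode enzymes that remove or add ubiquitin, were lowest.

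Exon inclusion was measured as percent spliced in (PSI), the share of junction reads that include the exon after division by the length of each form, from 0 to 1. Of the 46 SE events of the members, 39 had at least 20 reads in every fibroblast library, 19 of them in Mdm2, 9 in Mdm4, 7 in Trp53 and 2 each in Gadd45a and Sesn2. Cdkn1a and Phlda3 had no SE event in the table. Among the 39 events, 8 were called (adjusted p under 0.05 and a difference of at least 0.1), all 8 lower after pladienolide B, against 7.28% of the 54535 events tested, 7.17% lower. The 8 events lie in 7 exon forms, 6 events in Mdm2 and 1 each in Mdm4 and Sesn2. In 21 of the 39 events both pladienolide B libraries lay below both DMSO libraries (32.7% of all events), in none did both lie above, and in 18 the groups overlapped or tied. The median difference in PSI was -0.0393 for the members and -0.00524 over all events. Events of 1 gene share exons, junctions and reads and are not independent. For the further p53 targets 19 of 110 events (17.3%) were called lower, and for the regulators 17 of 216 (7.87%), with none called higher.

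In 23 of the 39 events neither DMSO library had a skipping read, and in 11 of those 23 both pladienolide B libraries had some. These are counts of events, not exons. The Mdm2 50-bp exon, for example, had no DMSO read skipping to its farther flank but 1 and 6 skipping to its nearer flank. The same shares were not computed over all events. Over the 8 called events, in which the 50-bp exon of Mdm2 counts with each of its flanks, the exon length had a median of 73 bp and ranged from 50 to 131 bp, and over the events not called the median was 113 bp. The length was divisible by 3 in 2 of the 8 called events, and in 14 of the events not called, against 17 in which it was not. All called differences kept their sign with each library left out, but no event of a member was called without either pladienolide B library (adjusted p of the 8 from 0.411 to 0.475), and 5 were without either DMSO library. Fits with 1 library in a condition leave few residual degrees of freedom, so whether the 8 calls are stable was not settled.

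In Mdm2 (chromosome 10, positions 117688875 to 117710758 of mm10, minus strand) the largest change was in an 85-bp exon at chr10:117709700-117709784. Inclusion reads numbered 1491 and 1618 in DMSO and 61 and 112 in pladienolide B, and skipping reads 107 and 123 against 102 and 190. PSI was 0.899 and 0.894 in DMSO and 0.277 and 0.274 in pladienolide B, with a mean difference of -0.621 (adjusted p = 0.000917). The conditions were thus far apart, and inclusion reads were fewer in both treated libraries, whereas skipping reads were similar in the first and more numerous in the other. A 131-bp form of the same exon, which shares its upstream end and runs further downstream, to 117709654, fell from 0.631 and 0.632 to 0.0728 and 0.0872 (adjusted p = 0.00114). Both forms are scored against the same skipping reads and share the junction to the exon at 117709946. The PSI of each form leaves out reads that belong only to the other, so neither value is the share of that form among Mdm2 transcripts.

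At the other end of Mdm2, a 78-bp exon at chr10:117691145-117691222 had no skipping read beside 1618 and 1746 inclusion reads in DMSO. After pladienolide B it had 210 and 240 skipping reads beside 196 and 295 inclusion reads. Its PSI was 1.00 in both DMSO libraries and 0.381 and 0.448 after treatment (difference -0.586, adjusted p = 0.000917). This length is divisible by 3. The values are for skipping to the nearest flank, at 117692582. Against the farther flank at 117694905, PSI after treatment was 0.964 and 0.878, and against that at 117705155 it was 0.988 and 0.911. Neither of these events was called. For a 97-bp exon at chr10:117695953-117696049, PSI was 0.997 and 0.989 in DMSO and 0.489 and 0.479 in pladienolide B (adjusted p = 0.00119). A 50-bp exon at chr10:117701565-117701614 was skipped to 2 flanking exons. Against the nearer flank PSI fell from 0.999 and 0.993 to 0.800 and 0.597 (adjusted p = 0.00616), and against the farther from 1.00 in both libraries to 0.765 and 0.890 (adjusted p = 0.0255). The other Mdm2 events had mean differences between -0.0790 and -0.00660, and none was called.

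In Mdm4 (chromosome 1, positions 132986105 to 133030587, minus strand) the called event was a 68-bp exon at chr1:133004654-133004721. Reads including and skipping it numbered 270 and 44 in the first DMSO library and 256 and 44 in the other. After treatment they were 14 and 19 in the first library and 15 and 29 in the other. PSI was 0.809 and 0.801 in DMSO and 0.337 and 0.263 in pladienolide B, a difference of -0.505 (adjusted p = 0.00699). This exon has the length of the one whose skipping gives Mdm4-S, but exon annotation was not used here, so the identity was not checked. A 147-bp exon of Mdm4 at chr1:132996563-132996709 had PSI values of 0.991 and 0.994 in DMSO and 0.871 and 0.920 in pladienolide B, did not pass the test (adjusted p = 0.0607), and rested on 3 skipping reads in each treated library.

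Sesn2 (chromosome 4, positions 132492804 to 132510456, minus strand) had 2 events. A 66-bp exon at chr4:132502563-132502628 had no skipping read beside 338 and 326 inclusion reads in DMSO, and 4 and 12 beside 25 and 41 in pladienolide B. Its PSI was 1.00 in both DMSO libraries and 0.813 and 0.704 after treatment (adjusted p = 0.00792). A 213-bp exon at chr4:132498937-132499149 had 5 skipping reads in the first pladienolide B library and none in the other 3 libraries (difference -0.0962, adjusted p = 0.0719).

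Gadd45a events moved little in PSI at high depth. A 102-bp exon at chr6:67037010-67037111 had no skipping read in DMSO, and PSI values of 0.985 and 0.936 in pladienolide B (adjusted p = 0.0188, difference -0.0393). A 238-bp exon at chr6:67036678-67036915 stood at 0.994 and 0.990 after treatment against 1.00 in both DMSO libraries (adjusted p = 0.0229). Both passed the p threshold and missed the size limit. In Trp53 none of 7 events was called, and 2 had an unadjusted p under 0.05, against 17755 of 54535 events tested. The largest Trp53 difference, -0.00735, belonged to a 261-bp exon at chr11:69587372-69587632, skipped by 22 reads in the second pladienolide B library and by none in the other 3 libraries.

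**Figure D2:**
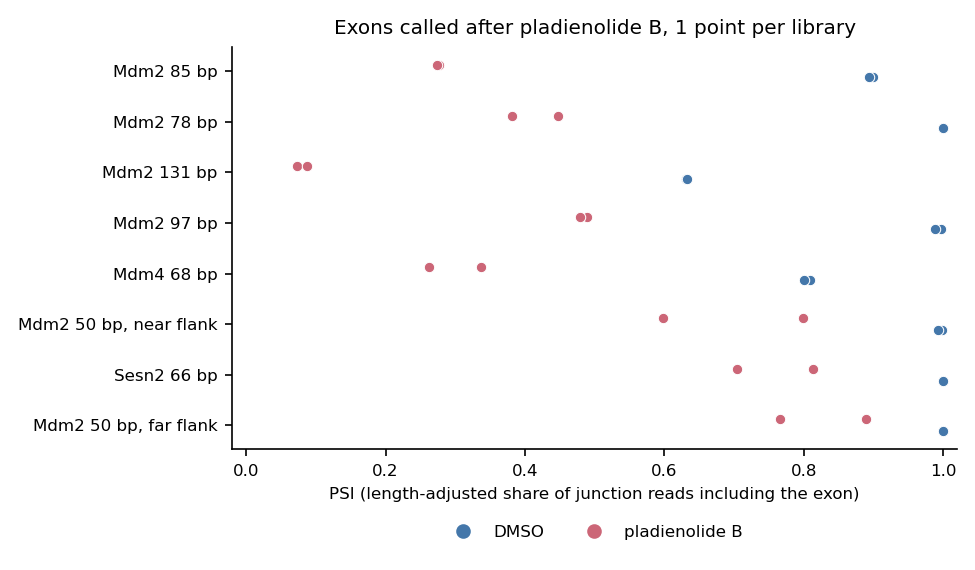
PSI (horizontal axis, 0 to 1) of the 8 SE events called after pladienolide B, ordered by the size of the difference, with 1 point per fibroblast library in DMSO (blue) or pladienolide B (red). Exons are named by length, and the 50-bp exon of Mdm2 appears with a near and a far flank. In every event both red points lie left of both blue points, and the Mdm2 85-bp exon moves from 0.899 and 0.894 to 0.277 and 0.274.

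Both RI events of the members passed the read minimum and 0 of 2 were called, against 38% of 1802 RI events. At an unadjusted p under 0.05 both passed, as did 1092 of the 1802 events. The Trp53 intron between 69587632 and 69588364 was retained at a PSI of 0.00933 and 0.0101 in DMSO and 0.0641 and 0.0909 in pladienolide B. That increase of 0.0678 passed the p threshold (adjusted p = 1.13e-06) and not the size limit. In Mdm2 the intron between 117695068 and 117696381, which holds the 97-bp exon, had PSI values of 0.933 and 0.852 in DMSO and 0.774 and 0.729 in pladienolide B (adjusted p = 0.0631). Its retention reads numbered 84 and 115 in DMSO and 418 and 526 in pladienolide B, and reads splicing across the whole interval 3 and 10 against 61 and 98. Those are the same reads that skip the 97-bp exon, and reads that join that exon are not part of this RI event.

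TPM counts reads anywhere in the exons of a gene, whereas junction reads come only from spliced RNA, and both were therefore set side by side, a comparison chosen after the data were seen. For each SE event the junction reads, scaled to the library total, were divided by the TPM of the gene in the same library. Of the 39 events, 21 were called lower and 3 higher in pladienolide B. Over all 54460 events 22.6% were called, 14.4% lower, with 4487 events higher. In Mdm2 17 of 19 events were lower, with a median log2 difference of -1.84 against 0.14 over all events. Junction reads of the Mdm2 events had a median log2 difference of -2.15, whereas Mdm2 TPM differed by -0.31.

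Gadd45a behaved alike in direction. Its 102-bp exon had a log2 difference in junction reads of -1.90 and its 238-bp exon one of 0.11, while its TPM rose by 2.04, so that against TPM the differences were -3.94 ± 0.09 and -1.93 ± 0.06. In Sesn2 both events were lower (-1.67 and -1.23). In Mdm4 3 of 9 events were higher, against 4487 of 54460 over all events, with differences from -0.10 to 1.24. In Trp53 0 of 7 were called (2 passed the p threshold alone), with differences from -0.21 to 0.04. Without either DMSO library, 15 of the 39 events were called in place of 24.

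**Figure D3:**
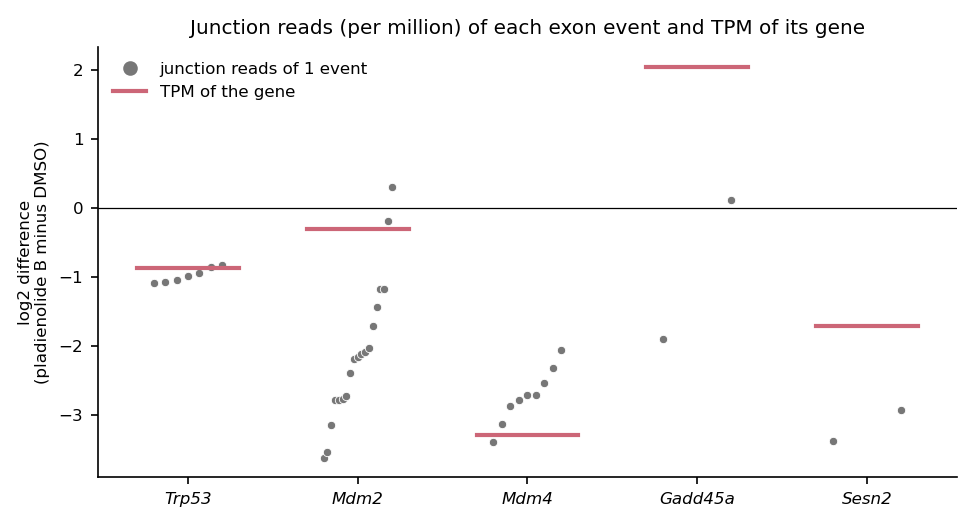
Log2 difference (pladienolide B minus DMSO) of the scaled junction reads of each SE event (grey points) and of the TPM of its gene (red line) for the 5 genes with tested events. The points of Trp53 lie near its line, those of Mdm2, Gadd45a and Sesn2 mostly lie below, and those of Mdm4 mostly lie above.

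Across the 7 tissues (6 organs and ESC), 23 member events had 20 or more reads in both libraries of at least 2 tissues, 12 in Mdm4, 9 in Mdm2 and 1 each in Trp53 and Sesn2. Of these 23 events 2 were called, both in Mdm4, against 9.03% of 47963 events. By mean PSI, the Mdm4 68-bp exon was included most in cortex (0.883 and 0.876), and then in liver (0.967 and 0.782) and spleen (0.822 and 0.855). Lung (0.644 and 0.673), heart (0.591 and 0.700) and kidney (0.617 and 0.669) lay below these and overlapped one another. ESC were lowest, with 0.384 in 1 clone and 0.609 in the other. The range of the means was 0.383 (adjusted p = 0.000956). The first liver library rested on 1 skipping read beside 55 inclusion reads. Fibroblasts in pladienolide B (0.337 and 0.263) were below every tissue library, whereas in DMSO (0.809 and 0.801) they lay within the range of liver. Tissues and fibroblasts were not counted alike. The effective lengths of the including and skipping forms were 142 and 75 in tissues and 216 and 149 in fibroblasts.

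The second call was a 78-bp exon of Mdm4 at chr1:133019354-133019431, named here after its values were seen. Its PSI was 0.260 and 0.314 in ESC and at most 0.0209 in the libraries of cortex, kidney and spleen (range of the means 0.285, adjusted p = 1.54e-08). The ESC values rested on 532 and 484 inclusion reads, against at most 8 in any library of the other 3 tissues. Fibroblasts stood at 0.00546 and 0.0278 in DMSO and 0.0196 and 0.0733 in pladienolide B. This exon was thus included in ESC and close to absent elsewhere in the groups with enough reads.

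Mdm2 exons changed less between tissues. For the 85-bp exon the mean PSI was lowest in cortex (0.831) and highest in liver (0.951), and for the 131-bp form the range was 0.201, with neither passing the test (adjusted p = 0.223 and 0.333). The 97-bp exon ranged from 0.949 in liver to 0.997 in heart (adjusted p = 0.0507). The Mdm2 78-bp exon, at or below 0.448 in pladienolide B against its nearest flank, was at 0.990 or more against that flank in the mean of each of 3 tissues measured. For the Sesn2 66-bp exon the means of 3 tissues lay within 0.00669, and for the Trp53 74-bp exon at chr11:69589789-69589862 those of 2 tissues within 0.00335.

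**Figure D4:**
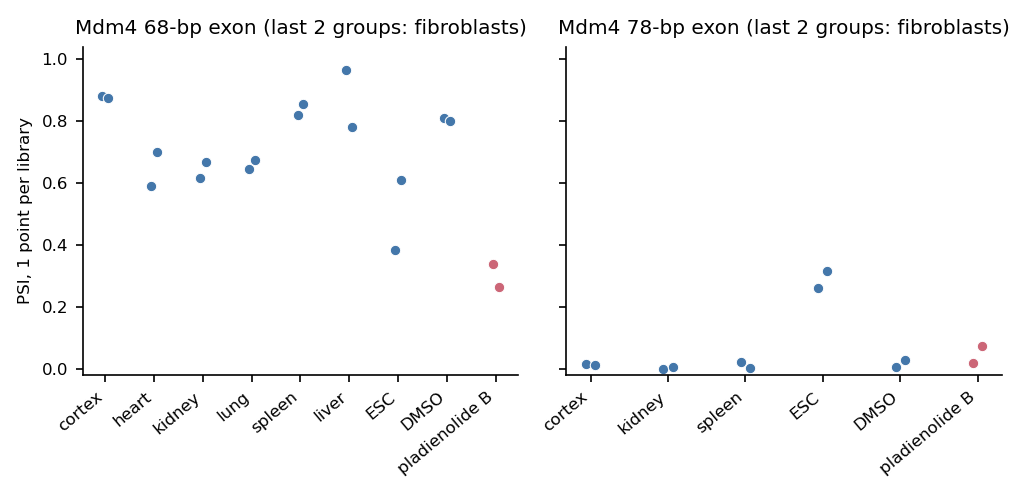
PSI of the Mdm4 68-bp exon (left) and 78-bp exon (right) in the groups with 20 or more reads in both libraries, 1 point per library, with pladienolide B in red. The 68-bp exon is lowest in pladienolide B (0.337 and 0.263) and, among tissues, in ESC (0.384 and 0.609), and the 78-bp exon is above 0.1 in ESC alone.

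Allelic PSI used only reads given to 1 strain. The Mdm2 85-bp exon was less included on the C57BL/6J allele than on the SPRET/EiJ allele in 18 of 18 libraries. Over all libraries, 1495 reads skipped the exon, of which 1477 were given to C57BL/6J, 16 to SPRET/EiJ and 2 to neither. In the 14 tissue libraries 968 of 973 skipping reads were from C57BL/6J and 3 from SPRET/EiJ. Inclusion reads were 9338 from C57BL/6J and 4903 from SPRET/EiJ over all libraries, with 2706 given to neither, so that the levels of PSI on each allele depend on which reads could be assigned. Outside pladienolide B, the SPRET/EiJ allele had at most 2 skipping reads in any library.

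Among the tissues, each tested alone, 4 member events were called, the Mdm2 85-bp exon in cortex, kidney, lung and spleen. In cortex its PSI was 0.675 and 0.765 on the C57BL/6J allele and 1.00 in both libraries on the SPRET/EiJ allele (adjusted p = 0.0292, 1 of 12 member events called, 1.57% of all events). Kidney stood at 0.810 in both libraries against 1.00 (adjusted p = 0.0176, 1 of 14, against 1.76%). For lung the values were 0.857 and 0.904 against 1.00 (adjusted p = 0.0493, 1 of 7, against 1.74%), and this call was lost with a prior that had no depth trend (adjusted p = 0.0617). Spleen had 0.723 and 0.764 against 1.00 (adjusted p = 0.0242, 1 of 8, against 1.34%).

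The other tissues had the same direction in both libraries and did not pass the test. Heart had 0.758 and 0.867 against 1.00 (adjusted p = 0.0890, 0 of 6 member events called, against 1.7%). In liver, with 8 skipping reads in each library, PSI was 0.902 and 0.910 against 1.00 (adjusted p = 0.236, 0 of 2, against 1.15%). In ESC it was 0.811 and 0.693 against 0.998 and 0.994 (adjusted p = 0.125, 0 of 24, against 0.229%). Of the member events, 2 in heart, 1 in liver and 2 in ESC had an unadjusted p under 0.05. Over all events these were 2070 of 16181 in heart, 1585 of 13342 in liver and 1445 of 30958 in ESC. Whether the allelic difference differed between tissues was not tested.

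In fibroblasts the 85-bp exon differed between alleles in both conditions. In DMSO, PSI was 0.856 and 0.839 on the C57BL/6J allele and 0.997 and 1.00 on the SPRET/EiJ allele (difference -0.151, adjusted p = 0.00418, 1 of 12 member events called, against 1.79%). After pladienolide B it was 0.183 and 0.199 on C57BL/6J and 0.775 and 0.789 on SPRET/EiJ (difference -0.591, adjusted p = 0.00275, 2 of 22, against 1.73%). On SPRET/EiJ this rested on 27 and 41 inclusion and 5 and 7 skipping reads. Both alleles were thus lower after treatment, with a difference in PSI of -0.151 before and -0.591 after. The change of the allelic difference was tested as an allele by treatment term on the logit scale. There 0 of 6 member events were called, against 0.0374% of 13352 events. That scale stretches differences near 1, and on it the allelic difference of the 85-bp exon was smaller after treatment than in DMSO. In DMSO the SPRET/EiJ allele had 1 and 0 skipping reads, so the difference on that scale is poorly fixed. The term therefore does not measure the growth of the difference in PSI. For the 85-bp exon the unadjusted p was 0.0543 and the adjusted p 0.811. No member event had an unadjusted p under 0.05, against 804 of 13352 events. This test has little power in 4 libraries, so the missing call says little about the change on either scale, and its interval was not computed.

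The Mdm2 78-bp exon, scored against its nearest flank, was the other call in pladienolide B. Its PSI was 0.192 and 0.246 on the C57BL/6J allele and 0.725 and 0.780 on the SPRET/EiJ allele (difference -0.533, adjusted p = 0.00015). Skipping reads were 177 and 204 from C57BL/6J and 33 and 36 from SPRET/EiJ, and every skipping read was given to an allele. Its events with farther flanks were not called. Against the flank at 117694905, PSI in pladienolide B was 0.872 and 0.681 on C57BL/6J and 1.00 and 0.967 on SPRET/EiJ. Against that at 117705155 the direction was the other way, with 1.00 in both libraries on C57BL/6J and 0.983 and 0.889 on SPRET/EiJ. In DMSO no read of either allele skipped this exon, since no read did. Kidney, spleen and ESC, the tissues with enough reads, had PSI values of 0.982 or more on each allele. The 97-bp exon, by contrast, was at 0.467 and 0.482 on C57BL/6J and at 0.527 and 0.471 on SPRET/EiJ in pladienolide B, where the alleles overlapped.

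The 131-bp form of the 85-bp exon was read mostly from C57BL/6J. In DMSO, 337 and 383 inclusion reads of this form were given to C57BL/6J and 5 and 13 to SPRET/EiJ, beside 985 and 999 against 505 and 614 for the 85-bp form. SPRET/EiJ had too few reads there for a test of the 131-bp form. In the 14 tissue libraries the reads counted as including this form were 4977 from C57BL/6J, 1165 from SPRET/EiJ and 862 from neither. Since the forms share a junction, some of these reads may come from the 85-bp form, and their number was not determined. The allelic difference of its PSI had the same sign in 18 of 18 libraries, over the same skipping reads as the 85-bp form. Some of these libraries were under the read minimum on SPRET/EiJ, so their sign rests on few reads. SPRET/EiJ had 19 reads in the first cortex library, 19 in the second liver library and 6 and 13 in DMSO. In pladienolide B it had 6 and 9, of which 1 and 2 were inclusion reads. The allelic difference of the 131-bp form passed the test in none of the groups where it was tested. Adjusted p-values were 0.0574 in kidney, 0.107 in spleen, 0.118 in lung, 0.174 in heart and 0.417 in ESC.

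**Figure D5:**
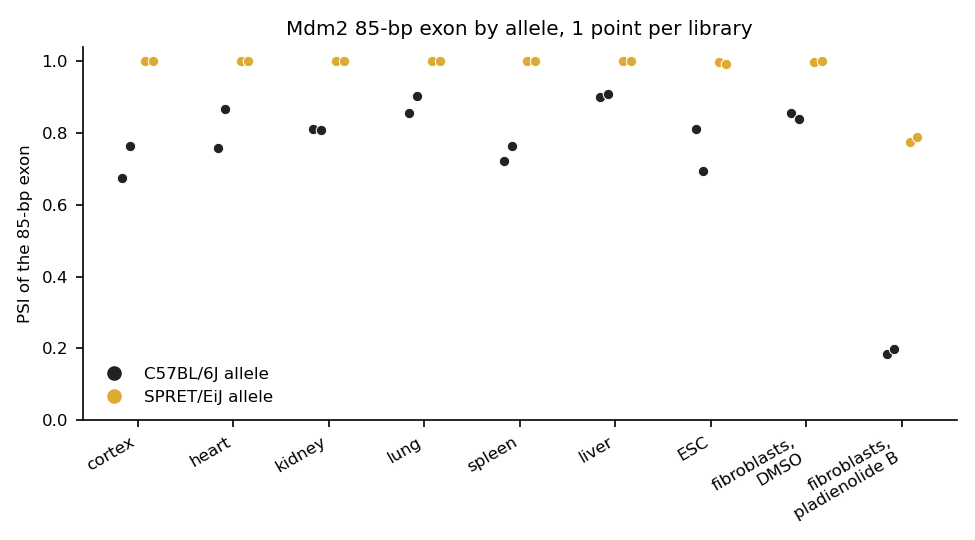
PSI of the Mdm2 85-bp exon on the C57BL/6J allele (black) and the SPRET/EiJ allele (yellow) in the 9 groups, 1 point per library. The black points lie below the yellow points in 18 of 18 libraries, and in pladienolide B both alleles are lowest, at 0.183 and 0.199 on C57BL/6J and 0.775 and 0.789 on SPRET/EiJ.

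Across tissues all 7 members differed in TPM, as did 99.7% of the 19138 genes tested (limma F test). ESC had the highest level of 5 members among all 9 groups. Trp53 was at 165 and 203 TPM in ESC, then at 117 and 102 in spleen, 91.5 and 89.7 in fibroblasts in DMSO, and lowest in liver (10.5 and 9.99). Among its neighbours in this order only heart and cortex overlapped. Mdm2 was at 269 and 145 TPM in the ESC clones and at 12.4 and 11.6 TPM in liver, and its levels in spleen and pladienolide B fibroblasts overlapped, as did those in heart and cortex. Mdm4 was at 190 and 116 TPM in ESC, at 65.6 and 58.3 in cortex and at 59.2 and 59.6 in spleen, the last 2 overlapping. Liver, the lowest organ for Mdm4 at 5.54 and 6.95 TPM, was above the fibroblasts in pladienolide B.

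Cdkn1a was at 494 and 324 TPM in ESC and at 9.12 and 8.80 TPM in spleen, and 3 of 8 neighbouring pairs of groups overlapped, all below lung. Sesn2 was at 196 and 149 TPM in ESC, at 40.6 and 40.8 in kidney and at 4.24 and 4.34 in heart. Gadd45a and Phlda3 were highest in fibroblasts in pladienolide B. The ESC clones differed in Gadd45a, at 230 and 19.2 TPM, the widest spread between replicates of any member and group. Its tissue difference (adjusted p = 0.0129) was not called without the second liver library (adjusted p = 0.0621). Phlda3 was at 140 and 106 TPM in ESC and at 0.525 and 0.502 TPM in liver, and no neighbours in its order overlapped.

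The genes most like each member in log2 TPM over the 18 libraries, among 18907 genes, were Anp32b for Trp53 (Pearson r = 0.993), Lars for Mdm2 (0.974), Nol8 for Mdm4 (0.986), Gstp1 for Cdkn1a (0.928), Pelo for Gadd45a (0.940), Xxylt1 for Phlda3 (0.973) and Amdhd2 for Sesn2 (0.966). Replicates of a group are near each other in both genes, so these values describe the 9 groups more than 18 separate samples. Hmgb2 (0.980) and Uhrf1 (0.979) followed for Trp53, and Orc3 (0.986) and Asxl2 (0.978) for Mdm4.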

How the data were processed

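RNA-seq of the 18 libraries was used as processed by the authors. They aligned reads with HISAT2 2.0.1 (submitters' processing notes) against mm10 and against a version of it carrying the SPRET/EiJ variants, and gave a read to the strain with fewer mismatches. The deposited junction counts per event and the effective form lengths, each a score without unit, were written by rMATS on the Ensembl annotation. The deposited expression is in TPM, computed by the authors from all reads. Their own comparison columns (p-values, FDR, inclusion levels and their differences) were not used. The position in each count list was taken as the replicate number, and counts were not normalized. Liver labels carry another spelling of the strain names. Sex chromosomes and mitochondria were left out of the splicing events but not of the TPM values. Allelic sums lay within the totals of the matching condition in 100% of events.

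PSI was computed from counts and form lengths with a minimum of 20 reads in every library used (per allele for alleles, with allelic and total PSI within 0.1). Each event was fitted by a quasi-binomial logistic model, and its dispersion was moderated by squeezeVar of limma 3.58.1 in R 4.3.3, with a depth trend and a minimum of 1, and the Benjamini-Hochberg adjustment ran over all events of a table. Calls needed an adjusted p under 0.05 and a PSI difference of 0.1. TPM was tested with limma on log2(TPM + 0.1) for genes with a mean of at least 1 TPM, and fold changes are on that scale, with calls at a fold of 1.5. Raising dispersions to 1 before moderation was also fitted to the real data, after the replicate block gave no calls and made many false calls on simulated data in the comparison across tissues, though few in the others, so it was kept only as an alternative. Each fit was tested on simulated data with known changes. The members and lists were chosen with earlier results of these data known. All 7 members are named, with at most 2 events per gene by size of change, events called between alleles, those with the largest range across tissues, the 3 genes of each list with the largest called change each way, and the 3 most alike genes per member. Other called and compared events were named after their values were seen. The replicate numbers did not pair fibroblast libraries (correlation of deviations -0.0123 for TPM, 0.00471 for SE, -0.00570 for RI) or tissues (-0.0417 to 0.212 for TPM, -0.0768 to 0.0551 for PSI). Both alleles of a library are paired by origin (0.0404 to 0.401 over 9 groups). Intervals of counting error were not computed, and numbers of reads stand beside the values they limit.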

Additional observations from a re-analysis of the deposited data

How the results depend on the processing

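Of the counts of calls, 77 alternatives stayed within 1.5 times the value reported and 15 did not. For SE events after pladienolide B (8 called), a minimum of 50 reads gave 5, and leaving out a library 0 to 5. RI events gave 0 to 1 with a library left out, the 1 being the Mdm2 intron without the first pladienolide B library (-0.164, adjusted p = 0.0476). Across tissues (2 called), raising dispersions before moderation gave 4, and leaving out 1 library up to 4, without the first ESC clone. Between alleles in tissues (4 called) raised dispersions gave 8. For TPM after pladienolide B (5 called) quantile normalization gave 3, and junction reads against TPM (24 called) gave 15 to 26 with a library left out. Directions reversed for Mdm2 TPM with quantile normalization (0.54), and for Trp53 (0.26), Mdm2 (0.82) and Cdkn1a (0.68) relative to the median gene.

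With the replicate block, 0 SE events of the members were called after pladienolide B (14 at an unadjusted p under 0.05), 0 between alleles in tissues (0 to 2 per tissue unadjusted) and 0 in fibroblasts (1 in DMSO and 3 in pladienolide B unadjusted), where alleles of a library are truly paired. The allelic calls of the Mdm2 exons are all lost in that paired fit (adjusted p from 0.579 to 0.608). This fit leaves few residual degrees of freedom and made no calls over all events of these tables or on simulated data with known changes, so it is void there. The SE fit without a fibroblast library, tried on such data for 1 library of each condition, made no calls either. The simulation moved 200 events, whereas 3972 SE events were called in the real data, so it does not match that fit. Whether the calls of the members are stable was therefore not settled. The replicate block changed no other count by over 1.5 times. The planned edgeR test of form by treatment was not run. Pairs of libraries leave few degrees of freedom. In pladienolide B some member events had few junction reads, such as 33 in the first library for the Mdm4 68-bp exon, which limits the precision of their PSI. The 3 settings added after seeing the data were raised dispersions, the median gene as reference and the alternatives of junction reads against TPM.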
